A study of Mus musculus with 18 samples.

Results

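Dendritic cells are the sentinels of the lung. They take up antigen in the airway wall and alveolar septa, carry it to the draining lymph node and present it to T cells. Conventional dendritic cells fall into a cDC1 type, which depends on the transcription factor Batf3 and carries Xcr1, Clec9a and, in lung, the integrin chain Itgae (CD103), and a cDC2 type, which carries Sirpa and, in part of the cells, lectins such as Cd209a. Both types express the growth factor receptor Flt3, the integrin chain Itgax (CD11c) and the factor Zbtb46. On maturation they gain Cd83 and the chemokine receptor Ccr7, which guides them to lymph nodes. None of these genes belongs to dendritic cells alone: mouse alveolar macrophages are rich in Itgax, many CD8 T cells carry Itgae, and naive T cells and B cells carry Ccr7.

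The genes described are Itgae, Itgax, Flt3, Xcr1, Batf3, Zbtb46, Ccr7, Clec9a, Cd209a and Cd83, 10 genes in all. A probe set of the array names 18194 genes alone, among them 9 of the 10. A probe set is a group of short probes that reads 1 transcript, and those naming a single member were taken, 13 of 45101. Of the 9 members covered, Itgae has 2 probe sets and Zbtb46 has 4. Clec9a, the lectin by which cDC1 cells sense dead cells, had no probe set that names it alone and is not analysed here. All 9 genes passed the filter on dim probe sets, and 1 Zbtb46 probe set did not, leaving 12. Xcr1 lay above the overall median signal on 4 of 18 arrays and Flt3 on 9, Batf3 on 15 and Ccr7 on 17, while the others did on all 18. Xcr1 and Flt3 were thus read close to the dim end of the scale, as was Batf3 on the A/J controls.

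Total lung RNA was measured in 6 groups of 3 arrays, which are irradiated and untreated control mice of the inbred strains A/J, C57BL6/J (usually written C57BL/6J) and C3H/HeJ. At the age of 8 weeks the irradiated mice were given 18 Gy of caesium gamma rays over the thorax while lead shielded the remaining body, and the right lung was taken once they were moribund. They were then 30 to 32 weeks old in A/J, 28 to 30 weeks in C57BL6/J and 20 to 22 weeks in C3H/HeJ, which is 22 to 24, 20 to 22 and 12 to 14 weeks after exposure. Controls of every strain were 15 to 26 weeks old and received no radiation. The irradiated arrays of a strain come from separate mice, per the labels, whereas for controls the labels speak only of 3 samples, so the spread there may be technical. Irradiation, time after exposure and moribund state cannot be told apart, and in A/J and C57BL6/J age goes with them as well.

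Some arrays stood apart. The mean signal after trimming ranged from 46.5 to 176 between arrays, and values below are therefore quantile-normalized log2(signal + 7). Sftpc, the surfactant protein gene that marks lung epithelium, was among the brightest probe sets on all 18 arrays, at 12.79 or above on this scale, a level at which quantile normalization gives arrays nearly the same value. Over 36 probe sets that separate untreated C3H/HeJ from untreated A/J arrays, set so that A/J lies at 0 and C3H/HeJ at 1, irradiated C3H/HeJ array 3 lay at 0.522, whereas irradiated arrays 1 and 2 of that strain lay at 0.962 and 0.971. Results of members in C3H/HeJ and the counts of gene lists there are given with and without it. The 5' over the 3' reading of the actin control, which falls in degraded RNA, was 0.413, 0.551 and 0.528 on the irradiated A/J arrays, against 0.742, 0.730 and 0.735 on the A/J controls, and between 0.677 and 0.766 elsewhere. The same ratio of the Gapdh control was 0.294, 0.876 and 1.03 on the irradiated A/J arrays, against 1.06 to 1.30 on all other arrays. The mean level of 9 squamous keratin and cornification genes was 8.17 on irradiated A/J array 3, and 8.66 and 8.65 on C57BL6/J control arrays 1 and 3, against at most 5.24 on any other array. Counts of gene lists in A/J and C57BL6/J are also given without these 3 arrays, which leaves a single C57BL6/J control whose spread is taken from the remaining groups. The list counts without arrays were chosen after seeing the data.

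In irradiated C3H/HeJ lung 6 of 9 members rose and none fell, led by Itgae at 3.69-fold. The other 5 were Itgax, Xcr1, Ccr7, Cd209a and Cd83, and without irradiated array 3 the count was 5, Itgax being lost. Of these, Xcr1 passed the filter on dim probe sets only through its level in irradiated C3H/HeJ lung, and it was thus not free to count otherwise as the rest were. In irradiated A/J lung 3 rose (Itgax, Flt3 and Batf3) and 2 fell (Ccr7 and Zbtb46), and in irradiated C57BL6/J lung no member passed the test. Without irradiated A/J array 3, neither Ccr7 (−0.42 ± 0.23, adjusted p = 0.205) nor Zbtb46 (−0.59 ± 0.20, 0.0520) passed in A/J. Cd83 then rose there (0.65 ± 0.18, adjusted p = 0.0194). Both falls were also lost without scaling between arrays and with median centring. A gene is said to rise or fall where its adjusted p-value is below 0.05. Of all 12405 genes, 23.5% passed in C3H/HeJ (12.9% rose and 10.6% fell), 24% in A/J (15.1% and 8.91%) and 5.37% in C57BL6/J (3.01% and 2.36%). These shares depend on the scaling between arrays: 1597 genes rose and 1319 fell in C3H/HeJ, against 3195 and 71 without scaling and 2960 and 467 with median centring, and 1874 rose and 1105 fell in A/J, against 2312 and 144, and 4135 and 536. The median of all genes then shifted upward by 0.61 and 0.24 in C3H/HeJ and by 0.56 and 0.33 in A/J. The median log2 fold change of the 9 members was 0.81 in C3H/HeJ, 0.31 in A/J and 0.53 in C57BL6/J, against medians over all genes of 0.01, 0.09 and −0.01. Lists of other cells, described below, had medians in the same order of strains. They were 0.73, 0.66 and 0.26 for macrophages, 0.84, 0.15 and 0.19 for monocytes, and 0.82, −0.36 and −0.22 for neutrophils. For T cells they were 0.22, −0.21 and 0.24, for natural killer cells −0.46, −0.79 and −0.06, and for B cells −0.49, −1.12 and 0.35. A median as high as that of the members in C3H/HeJ was thus not particular to them. The 3 strains do not share control arrays. In whole lung, more dendritic cells, more RNA per cell and more of the other cells that carry these genes cannot be told apart.

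**Figure D1:**
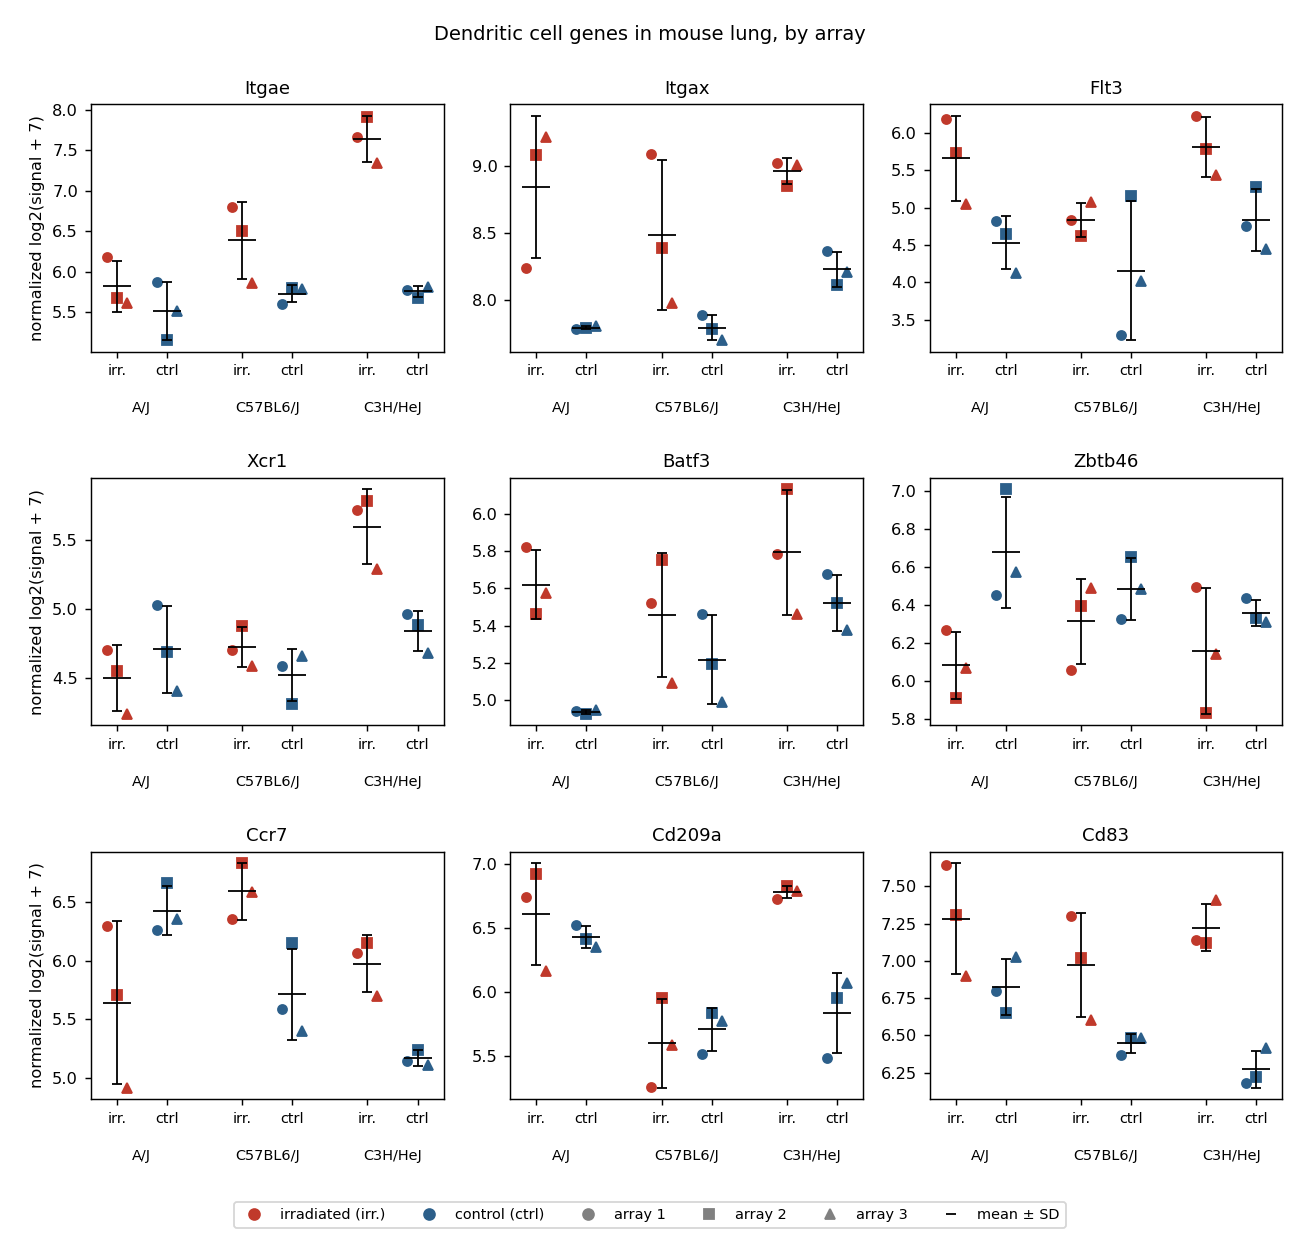
Normalized log2(signal + 7) of the 9 measured members on every array, irradiated (red) left of control (blue) in each strain, with the group mean and SD as bars. Itgae separates most widely in C3H/HeJ, where irradiated arrays lie between 7.34 and 7.92 and controls between 5.68 and 5.82, and Ccr7 lies above the controls in C57BL6/J and C3H/HeJ but not in A/J.

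Sequence upstream of the start of a RefSeq transcript (build GRCm38.p6) was at hand for 7 members, Itgax, Flt3, Xcr1, Batf3, Zbtb46, Clec9a and Cd209a. The 250 bases before each start were searched on both strands for letters bound by factors of this lineage: GAGGAA, the core read by the myeloid factor PU.1, the ETS-IRF composite read by PU.1 with Irf8 or Irf4, and TGANTCA, the AP-1 letters read by Jun proteins with Batf3. GAGGAA occurs in 23.3% of 32851 mouse promoters and in 1 of the 7, TGANTCA in 6.75% and in 2 of the 7, and the ETS-IRF composite in 2.30% and in none of the 7. The 3 stretches with a match are shown 5′ to 3′ because they hold the letters of factors that this gene group itself encodes or depends on, with the matched letters in capitals. Itgax is chr7:128129300-128129549 on the plus strand, Batf3 is chr1:191098164-191098413 on the plus strand and Zbtb46 is chr2:181424389-181424638 on the minus strand. The Zbtb46 window lies inside the annotated span of the gene, and the end of the Itgax window enters the annotated span of Itgax, which starts at 128129526.
Itgax: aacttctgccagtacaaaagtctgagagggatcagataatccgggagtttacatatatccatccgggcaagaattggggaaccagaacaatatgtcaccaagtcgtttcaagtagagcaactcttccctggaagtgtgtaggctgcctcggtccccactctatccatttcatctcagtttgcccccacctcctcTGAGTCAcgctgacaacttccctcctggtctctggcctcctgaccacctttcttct
Batf3: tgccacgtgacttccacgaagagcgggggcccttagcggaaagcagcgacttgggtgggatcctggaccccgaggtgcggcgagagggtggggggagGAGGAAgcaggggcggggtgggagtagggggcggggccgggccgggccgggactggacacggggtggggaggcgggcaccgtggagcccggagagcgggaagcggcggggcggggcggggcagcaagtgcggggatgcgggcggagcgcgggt
Zbtb46: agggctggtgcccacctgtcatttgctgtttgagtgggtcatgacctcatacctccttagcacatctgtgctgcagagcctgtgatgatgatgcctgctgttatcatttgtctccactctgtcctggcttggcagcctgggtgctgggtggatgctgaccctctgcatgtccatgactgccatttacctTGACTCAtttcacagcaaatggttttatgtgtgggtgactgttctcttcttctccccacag
The AP-1 letters of Itgax stand 56 to 50 bases before the start and those of Zbtb46 61 to 55 bases before it, and the PU.1 core of Batf3 stands 153 to 148 bases before it. Of the 2 genes with AP-1 letters in this window, Itgax rose in A/J and Zbtb46 fell there. The Zbtb46 fall passed in its probe set of highest signal only and held in 9 of 17 alternatives. Batf3, with the PU.1 core, rose in A/J. With so few genes nothing is drawn from the letters.

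Itgae (chromosome 11, 73090505 to 73147449 in GRCm38.p6) encodes the αE integrin chain CD103, which with the β7 chain binds E-cadherin on epithelium. In C3H/HeJ its probe set of higher signal lay at 7.66, 7.92 and 7.34 on the irradiated arrays and at 5.78, 5.68 and 5.82 on the controls. In C57BL6/J, Itgae lay at 6.80, 6.51 and 5.87 on the irradiated arrays and at 5.61, 5.80 and 5.79 on the controls. In A/J, Itgae lay at 6.18, 5.68 and 5.61 on the irradiated arrays and at 5.88, 5.16 and 5.51 on the controls. The groups stood far apart in C3H/HeJ and just apart in C57BL6/J, and they overlapped in A/J. Itgae rose by 1.88 ± 0.23 on the log2 scale in C3H/HeJ (adjusted p = 4.27e-05), and by 2.03 ± 0.25 without irradiated array 3. The log2 difference was 0.66 ± 0.23 in C57BL6/J (adjusted p = 0.108) and 0.31 ± 0.23 in A/J (adjusted p = 0.357). Before normalization its signal was 231.7, 203.8 and 243.5 on the irradiated C3H/HeJ arrays and 26.6, 39.9 and 40.6 on the controls.

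The effect on Itgae in C3H/HeJ exceeded that in A/J by 1.58 ± 0.32 on the log2 scale (adjusted p = 0.0315), 1 of 9 members that passed in a comparison where 1.06% of all genes did. It was not past the threshold without scaling (adjusted p = 0.0807), without the filter (0.0621) or without the 3 arrays high in squamous genes (0.0767). The same held when irradiated A/J array 2, A/J control 1 or 3, irradiated C3H/HeJ array 1 or 2 or any C3H/HeJ control was left out (1.39 to 1.60, adjusted p = 0.0525 to 0.0890), while without irradiated C3H/HeJ array 3 it passed at 1.72 ± 0.33 (0.0243). Of all genes 0.556% passed higher and 0.5% lower. Against C57BL6/J the excess was 1.22 ± 0.32 (adjusted p = 0.0689), in a comparison where 0 of 9 members and 1.61% of all genes passed (1.02% higher and 0.597% lower) and 3 members, Itgae, Cd209a and Xcr1, had an unadjusted p-value below 0.05. The other Itgae probe set also rose in C3H/HeJ, by 0.89 ± 0.18 (adjusted p = 0.00263 over all probe sets), with 6.33, 6.64 and 6.31 on the irradiated arrays and 5.48, 5.71 and 5.40 on the controls. Its excess over A/J was 0.80 ± 0.25 and did not pass (adjusted p = 0.112).

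**Figure D2:**
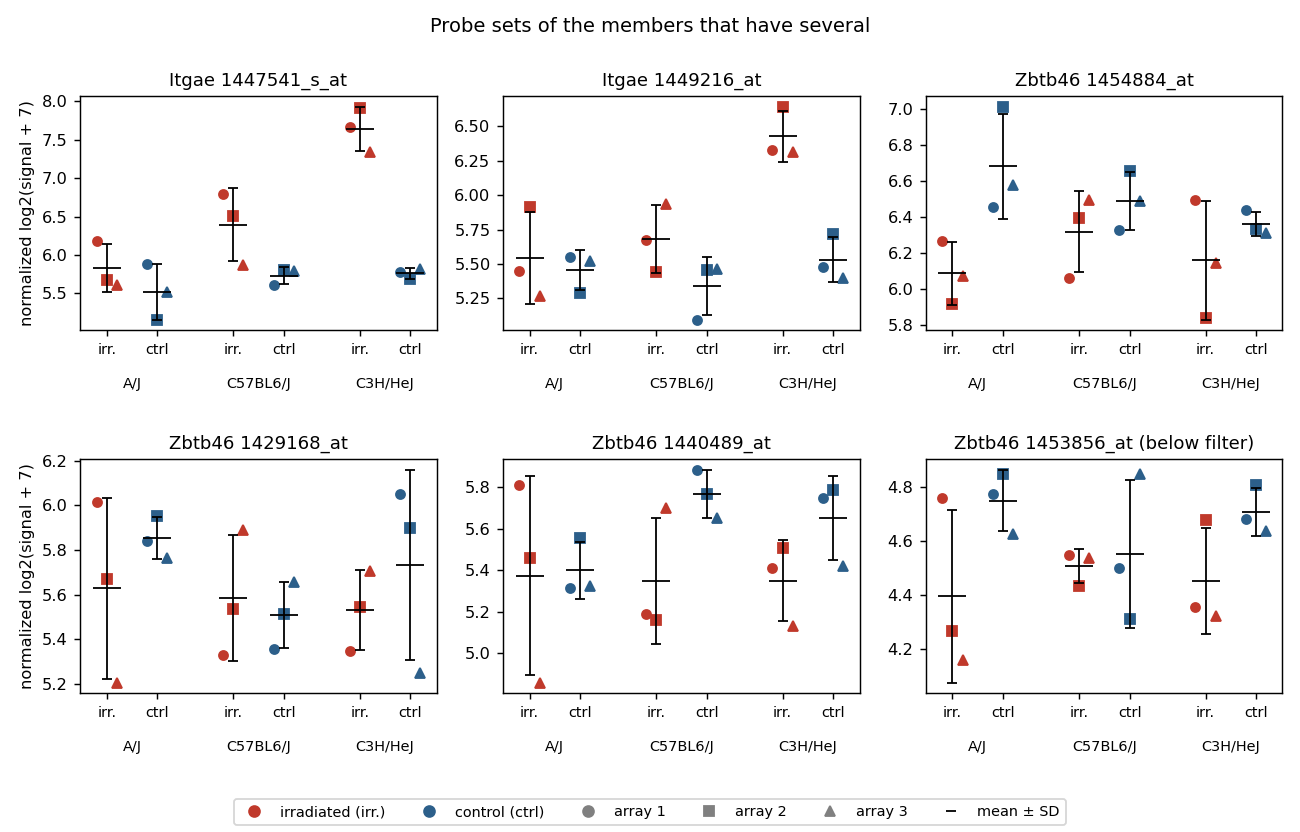
Normalized log2(signal + 7) of every probe set of Itgae and Zbtb46, the members with several, by array, irradiated (red) left of control (blue), with the group mean and SD as bars. Both Itgae probe sets separate the C3H/HeJ groups, by 1.88 and 0.89, whereas the A/J difference of Zbtb46 is −0.59 in the probe set of highest signal and −0.22 and −0.02 in the other kept ones.

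Because CD103 is also carried by T cells, the T cell genes are given beside it. Of 9 tested T cell genes 2 rose in C3H/HeJ and none fell, with a summed normalized signal of 479 to 509 on the irradiated arrays and 330 to 374 on the controls. No probe set of the list was at 0. The 2 were Il7r, the interleukin 7 receptor, which rose by 0.90 ± 0.16, and Cd5, a restraint on T cell receptor signals, which rose by 0.65 ± 0.21. Without irradiated array 3 only Il7r passed, and Cd5 was at 0.72 ± 0.24 (adjusted p = 0.0537). Chosen after their values were seen, the T cell receptor chains Cd3e, Cd3d and Cd3g differed by 1.07 ± 0.38 (adjusted p = 0.0550), 0.17 ± 0.21 and −0.09 ± 0.17, and the CD8 chains Cd8a and Cd8b1 by 0.04 ± 0.24 and 0.46 ± 0.32, and none of these 5 passed. Cd3e lay at 5.14, 5.86 and 5.54 on the irradiated arrays and at 3.34, 5.10 and 4.88 on the controls, with no overlap. The part of T cells in the Itgae result was not tested. Also chosen after their values were seen, the log2 differences in C3H/HeJ of the β7 partner Itgb7 (−0.21 ± 0.23) and the ligand Cdh1, which is E-cadherin (0.24 ± 0.11), did not pass either.

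Xcr1 (chromosome 9) encodes the chemokine receptor by which cDC1 cells meet Xcl1 from T and natural killer cells. It lay at 5.72, 5.78 and 5.29 on the irradiated C3H/HeJ arrays and at 4.96, 4.88 and 4.68 on the controls. In C57BL6/J, Xcr1 lay at 4.70, 4.88 and 4.59 on the irradiated arrays and at 4.59, 4.31 and 4.66 on the controls. In A/J, Xcr1 lay at 4.71, 4.55 and 4.24 on the irradiated arrays and at 5.03, 4.69 and 4.40 on the controls. The groups were apart in C3H/HeJ, where all 3 irradiated arrays lay above every other array of the series, and overlapped in the other strains. The 4 arrays on which Xcr1 lay above the overall median of 4.98 were these 3 and A/J control 1. The filter asked for at least 3 such arrays, so Xcr1 was tested only because of its level in irradiated C3H/HeJ lung. That its arrays stood apart there is therefore no separate support for the rise. Xcr1 rose by 0.75 ± 0.18 in C3H/HeJ (1.69-fold, adjusted p = 0.00582), and by 0.91 ± 0.18 without irradiated array 3. The log2 differences were 0.20 ± 0.18 in C57BL6/J (adjusted p = 0.583) and −0.21 ± 0.18 in A/J (adjusted p = 0.420). The excess of the C3H/HeJ effect over the A/J effect was 0.96 ± 0.25 (adjusted p = 0.0698), and it passed without irradiated C3H/HeJ array 3 (1.12 ± 0.24, adjusted p = 0.0345).

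Batf3 (chromosome 1), the AP-1 family factor that cDC1 development requires, passed in A/J. It lay at 5.82, 5.46 and 5.57 on the irradiated A/J arrays and at 4.94, 4.93 and 4.95 on the controls. In C57BL6/J, Batf3 lay at 5.52, 5.75 and 5.10 on the irradiated arrays and at 5.47, 5.19 and 4.99 on the controls. In C3H/HeJ, Batf3 lay at 5.78, 6.13 and 5.46 on the irradiated arrays and at 5.68, 5.52 and 5.38 on the controls. Only the A/J groups did not overlap, and untreated A/J lung was the lowest of the 6 groups. The A/J controls were the only arrays on which Batf3 lay below the overall median of 4.98. Batf3 rose by 0.68 ± 0.18 in A/J (1.60-fold, adjusted p = 0.0132). Without irradiated A/J array 1, which had the lowest actin ratio, the change was 0.58 ± 0.20 (adjusted p = 0.0544). The log2 differences of 0.24 ± 0.18 in C57BL6/J and 0.27 ± 0.18 in C3H/HeJ did not pass (adjusted p = 0.519 and 0.315), nor did that in C3H/HeJ without irradiated array 3, at 0.43 ± 0.19 (0.130), and no difference of effects between strains passed for Batf3.

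Of 13 other tested cDC1 genes, 6 rose and 1 fell in C3H/HeJ, 4 rose and 1 fell in A/J, and 3 rose in C57BL6/J. The list's median log2 difference was 0.24, 0.17 and 0.25 in these strains. Without irradiated C3H/HeJ array 3 the C3H/HeJ count was again 6 and 1, and without the arrays high in squamous genes 4 rose and 0 fell in A/J, Snx22 being lost, and 0 passed in C57BL6/J. In C3H/HeJ, Gcsam rose by 1.54 ± 0.22, the bZIP factor Nfil3 by 1.36 ± 0.30, the endosomal GTPase Rab7b by 1.09 ± 0.20 and the lipid amidase Naaa by 0.86 ± 0.12. In A/J, Rab7b rose by 1.48 ± 0.20, Gcsam by 1.20 ± 0.22 and Irf8, the factor that works with Batf3, by 0.43 ± 0.10, while Snx22 fell by 0.63 ± 0.22. In C57BL6/J the genes were Nfil3 (1.29 ± 0.30), Wdfy4, needed for cross-presentation by cDC1 cells (0.75 ± 0.13), and Irf8 (0.45 ± 0.10). Chosen after their values were seen, Irf8 also rose in C3H/HeJ (0.73 ± 0.10), and Cadm1, an adhesion molecule of cDC1 and of epithelial cells, fell there by 0.61 ± 0.12.

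Flt3 (chromosome 5), the receptor whose ligand sustains dendritic cell production, passed in A/J. It lay at 6.19, 5.74 and 5.05 on the irradiated A/J arrays and at 4.82, 4.64 and 4.13 on the controls. In C3H/HeJ, Flt3 lay at 6.22, 5.78 and 5.43 on the irradiated arrays and at 4.76, 5.28 and 4.45 on the controls. In C57BL6/J, Flt3 lay at 4.83, 4.61 and 5.07 on the irradiated arrays and at 3.30, 5.15 and 4.02 on the controls. Irradiated arrays were above all controls in A/J and C3H/HeJ, while in C57BL6/J the controls spread most and held both the highest and the lowest value. Flt3 rose by 1.13 ± 0.39 in A/J (2.19-fold, adjusted p = 0.0457), but the difference of 0.98 ± 0.39 in C3H/HeJ did not pass (adjusted p = 0.0800), nor did that of 0.68 ± 0.39 in C57BL6/J (0.355). Without irradiated array 3 the C3H/HeJ difference was 1.17 ± 0.44 (adjusted p = 0.0783). The direction in C57BL6/J rests on few arrays: the difference was 0.25 to 1.18 with 1 array left out, and −0.32 ± 0.36 without the 3 arrays high in squamous genes, where control 2, the highest at 5.15, is the control that remains. The A/J call was lost without irradiated array 1 (0.87 ± 0.42, adjusted p = 0.172), and likewise without irradiated array 2 or any 1 control (0.93 to 1.27, adjusted p = 0.0595 to 0.153). The differences between strains in this effect lay between −0.45 and 0.30 and each had a standard error of 0.55.

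Itgax (chromosome 7), the CD11c chain, passed in 2 strains. It lay at 8.24, 9.08 and 9.21 on the irradiated A/J arrays and at 7.79, 7.79 and 7.81 on the controls. In C3H/HeJ, Itgax lay at 9.03, 8.85 and 9.01 on the irradiated arrays and at 8.37, 8.11 and 8.21 on the controls. In C57BL6/J, Itgax lay at 9.09, 8.39 and 7.98 on the irradiated arrays and at 7.89, 7.78 and 7.70 on the controls. Irradiated arrays lay above all controls of their strain in each of the 3 strains. Itgax rose by 1.05 ± 0.24 in A/J (2.07-fold, adjusted p = 0.00529) and by 0.73 ± 0.24 in C3H/HeJ (1.66-fold, adjusted p = 0.0389). The C3H/HeJ call was lost without irradiated array 3 (0.71 ± 0.28, adjusted p = 0.0960) and without any other 1 of the 6 arrays (0.67 to 0.80, adjusted p = 0.0607 to 0.104), and the C57BL6/J difference of 0.69 ± 0.24 did not pass (adjusted p = 0.111).

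Macrophages also carry Itgax. Of 13 tested alveolar and other macrophage genes, 6 rose and 1 fell in A/J, 5 rose and 1 fell in C3H/HeJ, and 2 rose in C57BL6/J. Without irradiated C3H/HeJ array 3 the count there was again 5 and 1, and without the arrays high in squamous genes 2 rose and 1 fell in A/J, Cd68 being among those lost (0.95 ± 0.38, adjusted p = 0.0929), and 0 passed in C57BL6/J. Their summed normalized signal was 4465 to 8517 on the irradiated A/J arrays and 4252 to 4977 on the A/J controls, 6879 to 8632 and 4782 to 5862 in C3H/HeJ, and 6477 to 10258 and 5968 to 6274 in C57BL6/J, and no probe set was at 0. Cd68, a lysosomal protein of macrophages, rose by 1.15 ± 0.32 in A/J and 1.35 ± 0.32 in C3H/HeJ, and the efferocytosis receptor Mertk rose by 1.09 ± 0.12 in A/J and 0.49 ± 0.12 in C57BL6/J. Siglecf, a lectin of alveolar macrophages and eosinophils, fell by 1.32 ± 0.28 in A/J and by 1.27 ± 0.28 in C3H/HeJ. Chil3 rose by 1.35 in A/J (1.06 without the arrays high in squamous genes), and Fcgr1 rose by 1.14 in C57BL6/J (1.13 without them). The genes whose pattern was most like Itgax over the 18 arrays were Pld3 (Pearson r = 0.99), Atp6v0d2 (0.98) and Ctsd (0.98). The part of macrophages in the Itgax result was not tested.

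Zbtb46 (chromosome 2), a factor of conventional dendritic cells and, in mouse, of endothelium, had negative differences in all 3 strains in its probe set of highest signal. Without scaling between arrays that in C3H/HeJ was 0.38 ± 0.35 (adjusted p = 0.361), where the median of all genes was 0.61. This probe set lay at 6.27, 5.92 and 6.07 on the irradiated A/J arrays and at 6.46, 7.01 and 6.57 on the controls. In C57BL6/J, Zbtb46 lay at 6.06, 6.39 and 6.49 on the irradiated arrays and at 6.33, 6.65 and 6.48 on the controls. In C3H/HeJ, Zbtb46 lay at 6.49, 5.84 and 6.14 on the irradiated arrays and at 6.44, 6.33 and 6.31 on the controls. The groups were apart in A/J and overlapped in C57BL6/J and C3H/HeJ. Zbtb46 fell by 0.59 ± 0.18 in A/J (adjusted p = 0.0226), and the differences of −0.17 ± 0.18 in C57BL6/J and −0.20 ± 0.18 in C3H/HeJ did not pass (adjusted p = 0.655 and 0.445). Without irradiated C3H/HeJ array 3 the last was −0.20 ± 0.20 (adjusted p = 0.556). The A/J log2 differences of its other kept probe sets were −0.22 ± 0.22 and −0.02 ± 0.21, and neither passed (adjusted p = 0.494 and 0.946). In C57BL6/J they were 0.08 ± 0.22 and −0.42 ± 0.21 and in C3H/HeJ −0.20 ± 0.22 and −0.30 ± 0.21, and none passed. The A/J call was also lost without irradiated array 2 or 3 or control 2 (−0.59 to −0.43, adjusted p = 0.0520 to 0.121). Without scaling it was lost as well (−0.17 ± 0.35, adjusted p = 0.691), where the median of all genes was 0.56.

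Cd209a (chromosome 8), a mouse homologue of the C-type lectin DC-SIGN found on monocyte-derived and cDC2 cells, passed in C3H/HeJ. It lay at 6.73, 6.83 and 6.79 on the irradiated C3H/HeJ arrays and at 5.48, 5.96 and 6.07 on the controls. In A/J, Cd209a lay at 6.75, 6.92 and 6.16 on the irradiated arrays and at 6.52, 6.42 and 6.35 on the controls. In C57BL6/J, Cd209a lay at 5.26, 5.95 and 5.58 on the irradiated arrays and at 5.52, 5.84 and 5.77 on the controls. The irradiated C3H/HeJ arrays were above the controls and close to one another, and the groups overlapped in A/J and in C57BL6/J. Cd209a rose by 0.95 ± 0.20 in C3H/HeJ (1.93-fold, adjusted p = 0.00319), and by 0.94 ± 0.23 without irradiated array 3. The differences were 0.18 ± 0.20 in A/J (adjusted p = 0.549) and −0.11 ± 0.20 in C57BL6/J (0.821, turning to 0.06 ± 0.21 without irradiated C57BL6/J array 1), and the excess of the C3H/HeJ effect over that in C57BL6/J was 1.06 ± 0.28 (adjusted p = 0.0734).

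Of 14 tested cDC2 genes, 7 rose and 1 fell in C3H/HeJ, 6 rose and 1 fell in A/J, and 2 rose in C57BL6/J, with list medians of 0.39, 0.32 and 0.28. Without irradiated C3H/HeJ array 3 the C3H/HeJ count was 6 and 0, and without the arrays high in squamous genes it was 6 and 1 in A/J, with Clec4a2 lost and Esam gained, and 0 in C57BL6/J. In C3H/HeJ the lectins Clec10a, Clec4a2 and Mgl2 rose by 1.94 ± 0.21, 1.71 ± 0.34 and 1.33 ± 0.16, and the calcium-binding protein gene S100a4 rose by 1.61 ± 0.18. In A/J, Clec10a rose by 1.69 ± 0.21, Clec4a2 by 1.05 ± 0.34 and Sirpa, the receptor for CD47, by 0.83 ± 0.15, while the zinc finger factor gene Zeb2 fell by 1.44 ± 0.24. In C57BL6/J, Clec10a rose by 0.80 ± 0.21 and Sirpa by 0.71 ± 0.15. Chosen after its value was seen, the corepressor gene Cbfa2t3 fell by 0.49 ± 0.15 in C3H/HeJ, a call lost without irradiated array 3 (−0.40 ± 0.16, adjusted p = 0.107). Monocytes and macrophages share several of these lectins. Of 9 tested monocyte genes 5 rose and 1 fell in C3H/HeJ, among them the receptors Ccr2 (1.74 ± 0.27) and Cd14 (1.61 ± 0.15), 3 rose in A/J, and 2 rose and 1 fell in C57BL6/J. The gene that fell was Treml4, by 0.61 in C3H/HeJ, where it was chosen after its value was seen, and by 0.95 in C57BL6/J. Fcgr4 (1.18) and Cd14 (0.61) rose in C57BL6/J. Without irradiated C3H/HeJ array 3 the count there was 4 and 0, and without the arrays high in squamous genes it was 3 and 0 in A/J and 0 in C57BL6/J. The summed normalized monocyte signal was 4565 to 4915 on the irradiated C3H/HeJ arrays and 3054 to 3297 on the controls, 3875 to 4490 and 3220 to 3474 in A/J, and 3088 to 3758 and 2845 to 3114 in C57BL6/J, and no probe set was at 0. The part of monocytes in the Cd209a result was not tested.

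**Figure D3:**
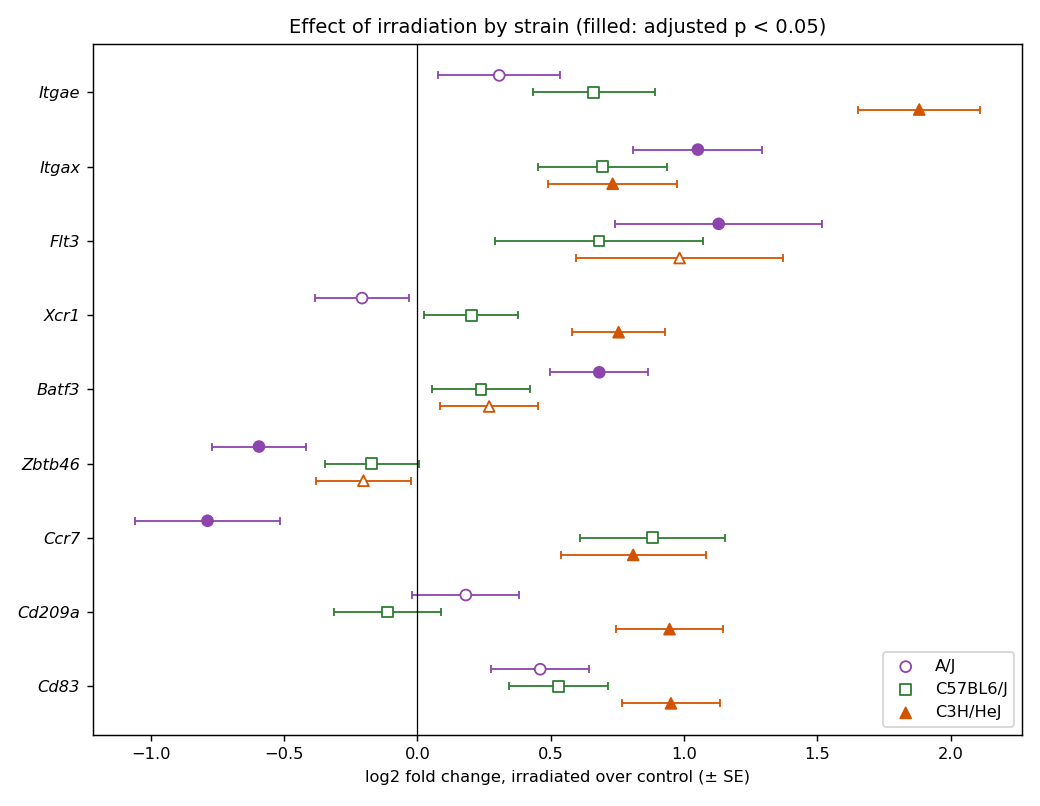
Log2 fold change, irradiated over control, of each member in A/J, C57BL6/J and C3H/HeJ, with bars for ± 1 standard error from the limma fit, and filled symbols where the adjusted p-value was below 0.05. Zbtb46 lies left of 0 in all 3 strains (but at 0.38 in C3H/HeJ without scaling between arrays, where the median of all genes was 0.61), Ccr7 lies at −0.79 in A/J against 0.88 and 0.81 in the other strains, and Itgae in C3H/HeJ lies farthest right at 1.88.

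Cd83 (chromosome 13), a surface protein of mature dendritic cells that keeps MHC class II at the surface, was higher in mean in every strain. It lay at 7.14, 7.12 and 7.41 on the irradiated C3H/HeJ arrays and at 6.18, 6.22 and 6.41 on the controls. In C57BL6/J, Cd83 lay at 7.30, 7.02 and 6.60 on the irradiated arrays and at 6.37, 6.48 and 6.48 on the controls. In A/J, Cd83 lay at 7.64, 7.31 and 6.90 on the irradiated arrays and at 6.80, 6.65 and 7.02 on the controls. Irradiated arrays lay above all controls in C3H/HeJ and C57BL6/J, and in A/J 1 irradiated array lay below 1 control. Cd83 rose by 0.95 ± 0.18 in C3H/HeJ (1.93-fold, adjusted p = 0.00177), and by 0.86 ± 0.21 without irradiated array 3. The differences of 0.53 ± 0.18 in C57BL6/J and 0.46 ± 0.18 in A/J did not pass (adjusted p = 0.111 and 0.0823). The A/J difference passed without irradiated array 3 (0.65 ± 0.18, adjusted p = 0.0194) and the C57BL6/J difference passed without irradiated array 3 of that strain (0.71 ± 0.18, adjusted p = 0.0337).

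Ccr7 (chromosome 11) differed in direction between strains. The receptor reads the chemokines Ccl19 and Ccl21, neither of which had a probe set naming it alone. It lay at 6.30, 5.71 and 4.91 on the irradiated A/J arrays and at 6.27, 6.66 and 6.36 on the controls. In C57BL6/J, Ccr7 lay at 6.36, 6.84 and 6.59 on the irradiated arrays and at 5.59, 6.15 and 5.40 on the controls. In C3H/HeJ, Ccr7 lay at 6.07, 6.16 and 5.70 on the irradiated arrays and at 5.15, 5.24 and 5.11 on the controls. Irradiated arrays lay above all controls in C57BL6/J and C3H/HeJ, while in A/J they spread widely and 2 of 3 lay below all controls. Ccr7 fell by 0.79 ± 0.27 in A/J (adjusted p = 0.0458) and rose by 0.81 ± 0.27 in C3H/HeJ (1.75-fold, adjusted p = 0.0414), or by 0.95 ± 0.30 without irradiated C3H/HeJ array 3. The C3H/HeJ call was lost when any 1 of the other 5 arrays was left out (0.72 to 0.85, adjusted p = 0.0720 to 0.125). The difference of 0.88 ± 0.27 in C57BL6/J did not pass (adjusted p = 0.0722), and the A/J call was lost without irradiated array 3 (−0.42 ± 0.23, adjusted p = 0.205), irradiated array 2 or any 1 control (−0.87 to −0.67, adjusted p = 0.0666 to 0.153).

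The effect on Ccr7 in C57BL6/J exceeded that in A/J by 1.67 ± 0.38 on the log2 scale (adjusted p = 0.0204), 1 of 9 members in a comparison where 5.38% of all genes passed (2.45% higher and 2.93% lower). The call was lost without A/J control 2, irradiated C57BL6/J array 2 or C57BL6/J control 1 or 3 (1.51 to 1.61, adjusted p = 0.0514 to 0.0564). Without C57BL6/J control arrays 1 and 3 and irradiated A/J array 3, which were high in squamous genes, the excess was 0.87 ± 0.33 and did not pass (adjusted p = 0.226). The excess of the C3H/HeJ effect over the A/J effect was 1.60 ± 0.38 (adjusted p = 0.0584). In that comparison Ccr7 passed without irradiated C3H/HeJ array 3 (1.74 ± 0.41, adjusted p = 0.0482).

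Lymphocytes also carry Ccr7. In A/J, 4 of 6 tested B cell genes fell and none rose, namely Ms4a1, the CD20 gene (−1.93 ± 0.31), the antigen receptor chains Cd79b (−1.22 ± 0.27) and Cd79a (−1.21 ± 0.27) and the complement receptor Cr2 (−1.02 ± 0.34). The summed normalized B cell signal was 349 to 541 on the irradiated A/J arrays and 906 to 1108 on the controls, while it was 615 to 879 and 444 to 749 in C57BL6/J and 291 to 442 and 396 to 610 in C3H/HeJ, where no B cell gene passed. Without irradiated A/J array 3 and the other arrays high in squamous genes 3 fell in A/J, Cr2 being lost. Of 9 T cell genes in A/J, Cd2 (−0.85 ± 0.19) and Cd3d (−0.78 ± 0.21) fell and Il7r rose (1.19 ± 0.16), with a summed signal of 480 to 615 on the irradiated arrays and 509 to 549 on the controls. In C57BL6/J 1 T cell gene passed, Il7r (1.16 ± 0.16), with a summed signal of 640 to 816 on the irradiated arrays and 410 to 596 on the controls, and without the arrays high in squamous genes it did not pass (0.86 ± 0.20, adjusted p = 0.154), while in A/J 1 rose and 3 fell, Cd8b1 being added. No probe set of either list was at 0. Ccr7 was most like Gpr18 (r = 0.85), Btla (0.84) and Tbc1d10c (0.81) over the 18 arrays. The part of B and T cells in the Ccr7 result was not tested.

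Other genes of mature dendritic cells rose more often than they fell, as did all genes together (12.9% against 10.6% in C3H/HeJ, 15.1% against 8.91% in A/J and 3.01% against 2.36% in C57BL6/J). Of 11 tested, 4 rose in C3H/HeJ, 4 in A/J and 2 in C57BL6/J, and none fell. The list median was 0.34, 0.44 and 0.38. Without irradiated C3H/HeJ array 3 the count there was again 4, and without the arrays high in squamous genes it was 2 in A/J, Cd86 and Socs2 being lost, and 0 in C57BL6/J. In C3H/HeJ the chemokines Ccl17 and Ccl22, which draw Ccr4-bearing T cells, rose by 2.69 ± 0.39 and 2.09 ± 0.44, the actin bundler Fscn1 by 2.12 ± 0.21 and the NF-kB subunit Relb by 0.83 ± 0.15. In A/J, Fscn1 rose by 1.57 ± 0.21, the costimulator Cd86 by 1.00 ± 0.31, Relb by 0.71 ± 0.15 and the cytokine signalling inhibitor Socs2 by 0.44 ± 0.13. In C57BL6/J, Cd86 rose by 1.28 ± 0.31 and Fscn1 by 1.26 ± 0.21. Outside the rule for naming genes, the differences of Ccl17 and Ccl22, chosen after their values were seen, were 0.80 ± 0.39 and 0.67 ± 0.44 in A/J and 0.56 ± 0.39 and −0.10 ± 0.44 in C57BL6/J, and none of the 4 passed.

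Among 13 tested ligands and partners of the members, 4 rose in C3H/HeJ, 2 rose and 1 fell in A/J, and 2 rose in C57BL6/J. Without irradiated C3H/HeJ array 3 the count there was again 4, and without the arrays high in squamous genes 3 rose and 1 fell in A/J, Icam1 being added, and 0 passed in C57BL6/J. The receptor chains for GM-CSF, which supports lung dendritic cells and alveolar macrophages, were among those that rose in each strain. Csf2rb rose by 1.41 ± 0.22 in C3H/HeJ, 1.19 ± 0.22 in A/J and 0.94 ± 0.22 in C57BL6/J, and Csf2ra by 0.93 ± 0.17, 1.02 ± 0.17 and 0.72 ± 0.17. The AP-1 subunit Junb (1.23 ± 0.18) and the adhesion ligand Icam1 (0.60 ± 0.12) rose in C3H/HeJ, and the AP-1 subunit Jun fell by 1.25 ± 0.14 in A/J. The Xcr1 ligand Xcl1, chosen after its values were seen, differed by 0.23 ± 0.30 in C3H/HeJ, 0.15 ± 0.30 in A/J and −0.15 ± 0.30 in C57BL6/J, and none passed. The Flt3 ligand gene had no probe set naming it alone.

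MHC class II genes serve dendritic cells in showing antigen to CD4 T cells. Of 10 tested, 4 rose in C3H/HeJ, 1 rose and 2 fell in A/J, and 1 rose in C57BL6/J. Without irradiated C3H/HeJ array 3 the count there was 3, Cd74 being lost, and without the arrays high in squamous genes 2 fell in A/J, with H2-Eb1 lost, and 0 passed in C57BL6/J. H2-Eb1 rose by 0.97 ± 0.11 in C3H/HeJ and 0.35 ± 0.11 in A/J, while H2-Ab1 fell by 0.61 ± 0.15 and the peptide-loading regulator H2-Ob by 1.13 ± 0.27 in A/J. The peptide loader H2-DMa (0.51 ± 0.13), H2-Aa (0.47 ± 0.13) and the invariant chain Cd74 (0.38 ± 0.13) rose in C3H/HeJ, and the protease Ctss rose in C57BL6/J (0.87 ± 0.24). Of 7 tested genes of plasmacytoid dendritic cells, the interferon-producing type, 3 rose and 1 fell in C3H/HeJ, 1 rose and 1 fell in A/J, and 1 rose in C57BL6/J. Without irradiated C3H/HeJ array 3 the count there was 3 and 0, Cox6a2 being lost, and without the arrays high in squamous genes Ly6d was lost in A/J and Irf7 in C57BL6/J. Irf7, a factor of the interferon response, rose in C3H/HeJ (0.84 ± 0.26) and C57BL6/J (1.18 ± 0.26). Bst2 (0.63 ± 0.19) and Ly6d (1.07 ± 0.31) rose and Cox6a2 fell by 0.87 ± 0.28 in C3H/HeJ, while Ly6d rose (0.92 ± 0.31) and the factor Tcf4 fell by 0.69 ± 0.20 in A/J.

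**Figure D4:**
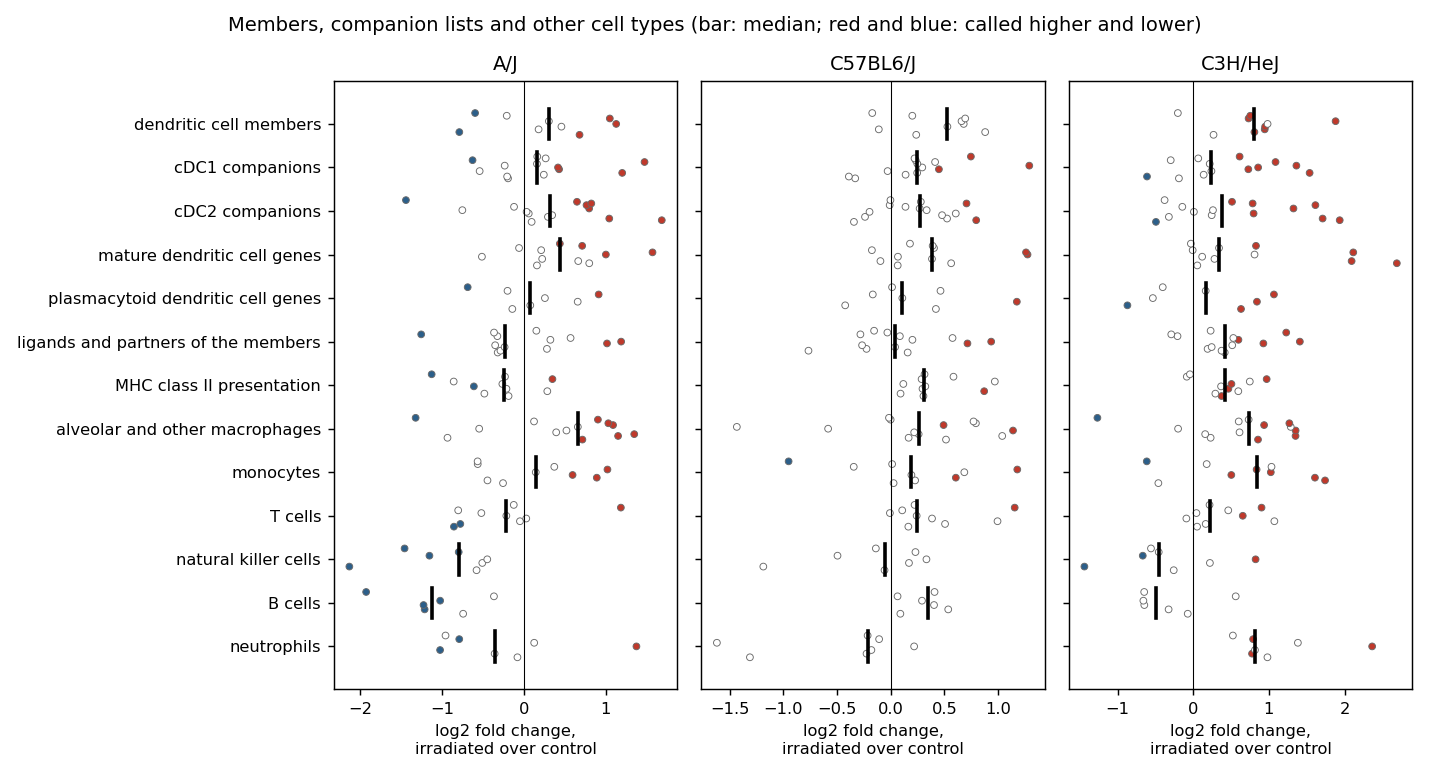
Log2 fold change, irradiated over control, of every tested gene of the 9 members, 6 companion lists and 6 lists of other immune cells, in the 3 strains, with the list median as a bar and genes past the threshold in red (higher) or blue (lower). The members' median is 0.31 in A/J, 0.53 in C57BL6/J and 0.81 in C3H/HeJ, and the B cell list lies left of 0 in A/J, where its median is −1.12.

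Markers of other cells that a lung sample can hold were read as well. Of 7 natural killer cell genes 4 fell in A/J, led by Gzma (−2.13 ± 0.40) and Prf1 (−1.46 ± 0.22), 2 fell and 1 rose in C3H/HeJ, and none passed in C57BL6/J. Of 7 neutrophil genes 3 rose in C3H/HeJ, with the collagenase Mmp8 at 2.36 ± 0.21, 1 rose and 2 fell in A/J, and none passed in C57BL6/J. Of 3 tested Langerhans cell genes, Ltc4s, an enzyme of leukotriene synthesis that other myeloid cells share, rose in each strain by 1.12 to 1.52, and the defining lectin Cd207 did not pass the filter. Cxcl13, a chemokine of lymphoid follicles, rose in each strain by 1.31 to 1.62, and the thymus and lymph node genes Rag1, Rag2, Ptcra, Dntt, Glycam1 and Madcam1 did not pass the filter. Without irradiated C3H/HeJ array 3, natural killer genes counted 1 higher and 0 lower there, neutrophil genes 2 higher, and Cxcl13 did not pass (1.15 ± 0.44, adjusted p = 0.0897). Without the arrays high in squamous genes, 4 natural killer genes again fell in A/J, neutrophil genes there counted 1 higher and 0 lower, and Cxcl13 in C57BL6/J did not pass (1.24 ± 0.56, adjusted p = 0.505). Of 9 squamous genes 1 fell in C57BL6/J, Krt78 (−2.75 ± 0.56), and none passed in the other strains, nor did any of 6 skeletal muscle genes in any strain. The summed normalized muscle signal was nonetheless uneven, at 165 to 2843 on the irradiated A/J arrays and 116 to 2934 on the C57BL6/J controls. In the other groups it was at most 644. The median log2 difference of the muscle list was 1.58 in A/J, −2.10 in C57BL6/J and 0.60 in C3H/HeJ.

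Averaged over the 3 strains, 6 members rose and 1 fell, where 36.2% of all genes passed (20.9% rose and 15.3% fell). Itgae rose by 0.95 ± 0.13 (adjusted p = 4.94e-05), Flt3 by 0.93 ± 0.22 (0.00427), Itgax by 0.83 ± 0.14 (0.000282), Cd83 by 0.65 ± 0.11 (0.000226), Batf3 by 0.40 ± 0.11 (0.00829) and Cd209a by 0.34 ± 0.12 (0.0315). Zbtb46 fell by 0.32 ± 0.10 (0.0212), but lay at 0.036 without scaling, where the median of all genes was 0.40. The call of Cd209a was lost in 8 of the 18 fits with 1 array left out (adjusted p = 0.0515 to 0.0672). The average of Ccr7 (0.30 ± 0.16, adjusted p = 0.15) joins changes of opposite sign, and that of Xcr1 (0.25 ± 0.10, adjusted p = 0.0671) joins a rise in C3H/HeJ with differences of either sign in the other strains. In C57BL6/J alone, where none passed, 4 members had an unadjusted p-value below 0.05 in limma, namely Ccr7, Itgae, Itgax and Cd83, and these are the 4 whose irradiated arrays all lay above the controls, against 11.7% of all genes, while 0 lay below them (12.5% of all genes). In C3H/HeJ 7 members lay above, all but Batf3 and Zbtb46, and 0 below, against 21.5% and 18.9% of all genes, and in A/J 3 lay above and 1 below, against 25.2% and 15.2%. Xcr1, among the 7, passed the filter only through its level in irradiated C3H/HeJ lung, so its place in that count is no separate support.

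Untreated lung differed between strains in 2 members. Cd209a was lower in untreated C57BL6/J than in untreated A/J lung on the log2 scale (−0.72 ± 0.20, adjusted p = 0.0301), with means of 5.71 ± 0.17 and 6.43 ± 0.08 (SD, n = 3 each), in a comparison where 10.4% of all genes passed (5.92% higher and 4.5% lower). That call was lost without any 1 A/J control or C57BL6/J control 1 or 3 (−0.76 to −0.63, adjusted p = 0.0607 to 0.129). Ccr7 was lower in untreated C3H/HeJ than in untreated A/J lung (−1.26 ± 0.27, adjusted p = 0.0123), with means of 5.17 ± 0.07 and 6.43 ± 0.21, where 4.49% of all genes passed (2.34% higher and 2.15% lower), and it did not pass without A/J control 2 (−1.15 ± 0.31, adjusted p = 0.0644). Between untreated C3H/HeJ and C57BL6/J lung no member passed in limma, and none had an unadjusted p-value below 0.05, where 10.9% of all genes passed (4.85% higher and 6% lower). Arrays did not overlap for 1 member higher and 3 lower in untreated C57BL6/J against A/J lung (15.9% and 16.7% of all genes), for 2 higher and 4 lower in C3H/HeJ against A/J (14.2% and 12.6%), and for 2 higher and 1 lower in C3H/HeJ against C57BL6/J (15.4% and 13.8%). Untreated Itgae was close in the 3 strains, at 5.76 ± 0.07 in C3H/HeJ, 5.73 ± 0.11 in C57BL6/J and 5.52 ± 0.36 in A/J, and its order over the 6 groups ran from irradiated C3H/HeJ (7.64 ± 0.29) through irradiated C57BL6/J (6.39 ± 0.47) and irradiated A/J (5.82 ± 0.31) to these controls, with the last 4 groups within their spread. Probe sequence can differ between strains, and its part in these differences was not tested.

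The members did not rise and fall as 1 block over the 18 arrays. Of 36 pairs of members, 27 had a correlation above 0, with a median r of 0.35 and a range from −0.73 to 0.84, the highest being Itgae with Xcr1. All points of such a correlation share the strain and treatment groups. The genes most like Itgae were Krt18 (r = 0.92), Naaa (0.89) and Saa1 (0.89), and those most like Cd83 were Sting1 (0.93), Dnajc2 (0.92) and Dhx8 (0.91). Cd209a was most like Tlr6 (0.89), Hal (0.88) and Emilin2 (0.86), Xcr1 like Plaur (0.85), Pdpn (0.85) and Ostc (0.84), and Batf3 like Rab31 (0.86), Kdelr3 (0.85) and Rexo2 (0.84). Flt3 was most like Mob3a (0.88), Xpnpep1 (0.88) and Rapgef1 (0.87), and Zbtb46 like Tmem109 (0.82), Tmco1 (0.82) and Eif4a2 (0.80).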

How the data were processed

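The deposited values were intensities on a linear scale, 1 per array for 45101 probe sets on 18 arrays, and MAS5 is named in the submitters' processing notes, without a version. The sources used here do not give the background handling or the scaling. The deposited intensities were changed to log2(signal + 7), where 7 is the rounded 25th percentile of all values, and quantile-normalized, because overall brightness differed between arrays. Fold changes on this scale understate the change of dim genes. The 64 control probe sets were left out. A probe set was kept if it lay above the overall median of 4.98 in at least 3 arrays, which left 25726. Names came from the platform annotation, in which 34958 probe sets named 1 gene. A gene was represented by its kept probe set of highest mean, giving 12405 genes. No column of values was left without a sample.

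Comparisons were fitted with limma 3.58.1 in R 4.3.3 as 6 group means over all 18 arrays, two-sided, with Benjamini-Hochberg adjustment over all genes and a threshold of 0.05. Errors of fold changes are standard errors, and adjusted p-values come from this limma fit or, where an alternative is named, from limma under that alternative. The fitting code was tested on simulated data. The number of arrays limits the precision. The members and the gene lists were chosen with earlier results of these data known. All members were described whatever their result. From each list up to 4 genes that passed the test were named per comparison, those of largest absolute log2 fold change. In the macrophage, monocyte, natural killer and neutrophil lists not all of these were named. Any other gene of a list named with a value of its own is said to have been chosen after its values were seen, apart from those named because a list count changed. Alternatives were no scaling, median centring, other offsets, no filter, other uses of the probe sets, other settings of the fit, a block for the replicate number, and leaving out arrays. For the block, same-numbered arrays of a strain were compared by the correlation of their deviations from the group means.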

Additional observations from a re-analysis of the deposited data

Results flagged for a closer look

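The effect of irradiation on Itgae was higher in C3H/HeJ than in A/J by 1.58 on the log2 scale, by a test of that difference (limma, adjusted p = 0.0315, 3 arrays in each of 4 groups). Itgae was higher on 3 of 3 irradiated C3H/HeJ arrays than on all controls of that strain, and its A/J groups overlapped. The call for this difference held in 11 of 23 alternatives, and the other Itgae probe set did not pass (0.80 ± 0.25, limma adjusted p = 0.112).

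The effect of irradiation on Ccr7 was higher in C57BL6/J than in A/J by 1.67 on the log2 scale, by the same kind of test (adjusted p = 0.0204). Ccr7 was higher on 3 of 3 irradiated C57BL6/J arrays than on all controls, and lower on 2 of 3 irradiated A/J arrays than on all controls. The call for this difference held in 16 of 23 alternatives. The difference was 0.87 ± 0.33 without the 3 arrays high in squamous genes, which leaves a single C57BL6/J control.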

How the results depend on the processing

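Calls for Itgax in A/J and for Itgae, Cd83, Cd209a and Xcr1 in C3H/HeJ held in all 17 alternatives run for each. In A/J, 5 members passed, but 3 with an offset of 1, without the filter or with only the groups compared, and 2 to 4 with 1 array left out. The call for Ccr7 in A/J held in 6 of 17 alternatives, that for Zbtb46 in 9, that for Flt3 in 10 and that for Batf3 in 16, and in C3H/HeJ those for Itgax and Ccr7 held in 10 and 11. In C57BL6/J, 0 passed, but 1 (Ccr7) with an offset of 32, and 0 to 3 with 1 array left out, 3 being Itgae, Itgax and Cd83 without irradiated array 3. In C3H/HeJ 6 passed, but 4 without the filter, 7 (also Flt3) without scaling, with an offset of 32, with only the groups compared and without the 3 arrays high in squamous genes, and 4 to 5 with 1 array left out. Averaged over strains 7 passed (6 to 9 with 1 array left out), and Zbtb46 turned to 0.036 without scaling, where the median of all genes was 0.40. The Ccr7 difference between C57BL6/J and A/J effects was lost (0 members) without scaling, with only the groups compared and without the 3 arrays high in squamous genes, with 0 to 1 when 1 array was left out. For C3H/HeJ against A/J effects, 0 passed without scaling, without the filter and without those 3 arrays, 2 (Itgae and Ccr7) with an offset of 32 and with trend and robust settings, and 0 to 3 with 1 array left out. For C3H/HeJ against C57BL6/J effects, 1 (Itgae) passed without scaling, with median centring, with the mean of probe sets and with trend and robust settings, 2 (also Cd209a) with an offset of 32, and 0 to 1 with 1 array left out. Between untreated C57BL6/J and A/J lung, 0 passed without scaling, with median centring, without the filter and without those 3 arrays (0 to 1 with 1 array left out). Between untreated C3H/HeJ and A/J lung, 2 (Ccr7 and Batf3) passed with only the groups compared, and 0 to 1 with 1 array left out, as between untreated C3H/HeJ and C57BL6/J lung. The cause was not tested. Of 789 member values under alternatives, 80 lost a call, 20 gained one and 4 changed sign, namely Zbtb46 averaged over strains, which had been called, and 3 uncalled values: Flt3 in C57BL6/J (−0.32 without those 3 arrays), Cd209a in C57BL6/J (0.06 without irradiated array 1) and Zbtb46 in C3H/HeJ (0.38 without scaling, where the median of all genes was 0.61).

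Replicate numbers did not pair the arrays: same-numbered arrays of a strain correlated at −0.084 to 0.095 in their deviations, and 3 of 9 correlated best with their own number. With the replicate number as a block, 0 members passed for C3H/HeJ against A/J effects (Itgae 1.58 ± 0.29, adjusted p = 0.0555), and Xcr1 passed on average over strains (0.25 ± 0.08, adjusted p = 0.0352). Over all genes, 666 passed in C57BL6/J, with 32 to 760 over the gene-level alternatives, 324 with the block and 79 with only the groups compared, and 2979 in A/J, but 4671 with median centring. For the differences of effects, 668 passed for C57BL6/J against A/J (87 to 951), 131 for C3H/HeJ against A/J (33 to 247) and 200 for C3H/HeJ against C57BL6/J (18 to 373). For untreated lung, 1292 passed for C57BL6/J against A/J (384 to 1459), 557 for C3H/HeJ against A/J (251 to 629) and 1346 for C3H/HeJ against C57BL6/J (419 to 1472). Dim members (Xcr1, Flt3, and Batf3 in untreated A/J lung) limit what these arrays can show.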
